A study of Mus musculus with 5 samples.

Results

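The genes described here encode the building blocks of the nuclear pore and the receptors that carry cargo through it, measured in newborn mouse ovaries that lack Lhx8 and in wild type ovaries. Members were the probe sets with a single gene symbol that begins with Nup, Kpna, Kpnb, Ipo or Xpo followed by a number or a t, together with those of Tnpo1, Tnpo2, Tnpo3, Ndc1, Pom121 and Tpr. This gave 116 of the 45101 probe sets on the array, which stand for 44 genes, 21 of them nucleoporins and 23 transport receptors or adaptors. RNA came from 5 pools of 50 ovaries from at least 25 female animals at postnatal day 0.5, each hybridised to 1 oligonucleotide array. The 3 Lhx8 null pools (replicates 1, 2 and 3) and the 2 wild type pools (replicates 2 and 3) shared the background labelled C57/BL6/129SVEV Hybrid. The wild type animals carried no stated allele or treatment, and the sources used here do not say how the Lhx8 null allele was made. The comparison asked which transcripts differ in ovaries without Lhx8, a LIM homeodomain transcription factor of oocytes.

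The nuclear pore complex is a ring of stacked scaffolds in the nuclear envelope. Outer rings of the Y complex and an inner ring hold the structure, membrane-anchored nucleoporins fix it to the envelope, and nucleoporins with phenylalanine-glycine repeats fill the central channel and reach to both faces. Importins bind a nuclear localisation signal, often through an importin alpha adaptor, and release the cargo when they meet RAN bound to GTP, while exportins carry cargo out together with RAN-GTP. Oocytes store nuclear transport factors for the early embryo, and KPNA7 is an importin alpha known mainly from oocytes and cleavage embryos.

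Signals are given as deposited, in the order null replicates 1, 2, 3 and wild type replicates 2, 3, while differences and overlap were taken after quantile normalization. The probe set of Lhx8 read 332.6, 159.0 and 347.4 in null pools against 6450.1 and 5223.1 in wild type pools (log2 fold change -4.45, SE 0.29, adjusted p = 1.08e-05 by limma). The deposited arrays had equal trimmed means, and quantile normalised arrays correlated at 0.960 to 0.974 within the null group, 0.970 within the wild type group and 0.905 to 0.931 across groups. The hybridisation control BioC had a mean ratio of 2.22 between null and wild type arrays, and the 3' to 5' ratio of Actb, a sign of RNA integrity, was 1.48 to 1.69 on null and 1.39 to 1.43 on wild type arrays. Their part in the results was not tested.

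Nuclear pore and transport genes mostly fell where they passed the test. Of the 44 genes, 42 were bright enough to be tested, each by its brightest probe set. In Lhx8 null ovaries 16 fell, 4 rose and 22 did not pass (adjusted p below 0.05 by limma, corrected over 10916 genes). The 16 that fell are 38.1% of those tested, where 22.3% of all genes tested fell, and the 4 that rose are 9.52%, where 25.6% of all genes tested rose. In either direction 47.6% passed, beside 47.8% of all genes tested. The median log2 fold change was -0.12 for the 42 genes and 0.04 for all genes tested, both as null minus wild type on the log2(signal + 16) scale. Arrays of the groups did not overlap for 25 of the 42 genes (59.5%) and for 67.8% of all genes tested. By 2-fold or more 4 genes fell and 2 rose, beside 8.13% and 8.88% of all genes tested.

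With each array centred on its median in place of quantile normalization, 20 member genes fell and 2 rose, and the share of calls that were higher went from 20.0% to 9.09%. That scaling shifted the median of all genes from 0.04 to -0.18 and their share of higher calls from 53.5% to 33.5%. Without wild type replicate 3 there were 11 falls and 2 rises, without wild type replicate 2 there were 11 and 4. The number of arrays limits the precision of every value here. Replicates are pools of animals, and the sources used here name no dissection or hybridisation batch.

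**Figure D1:**
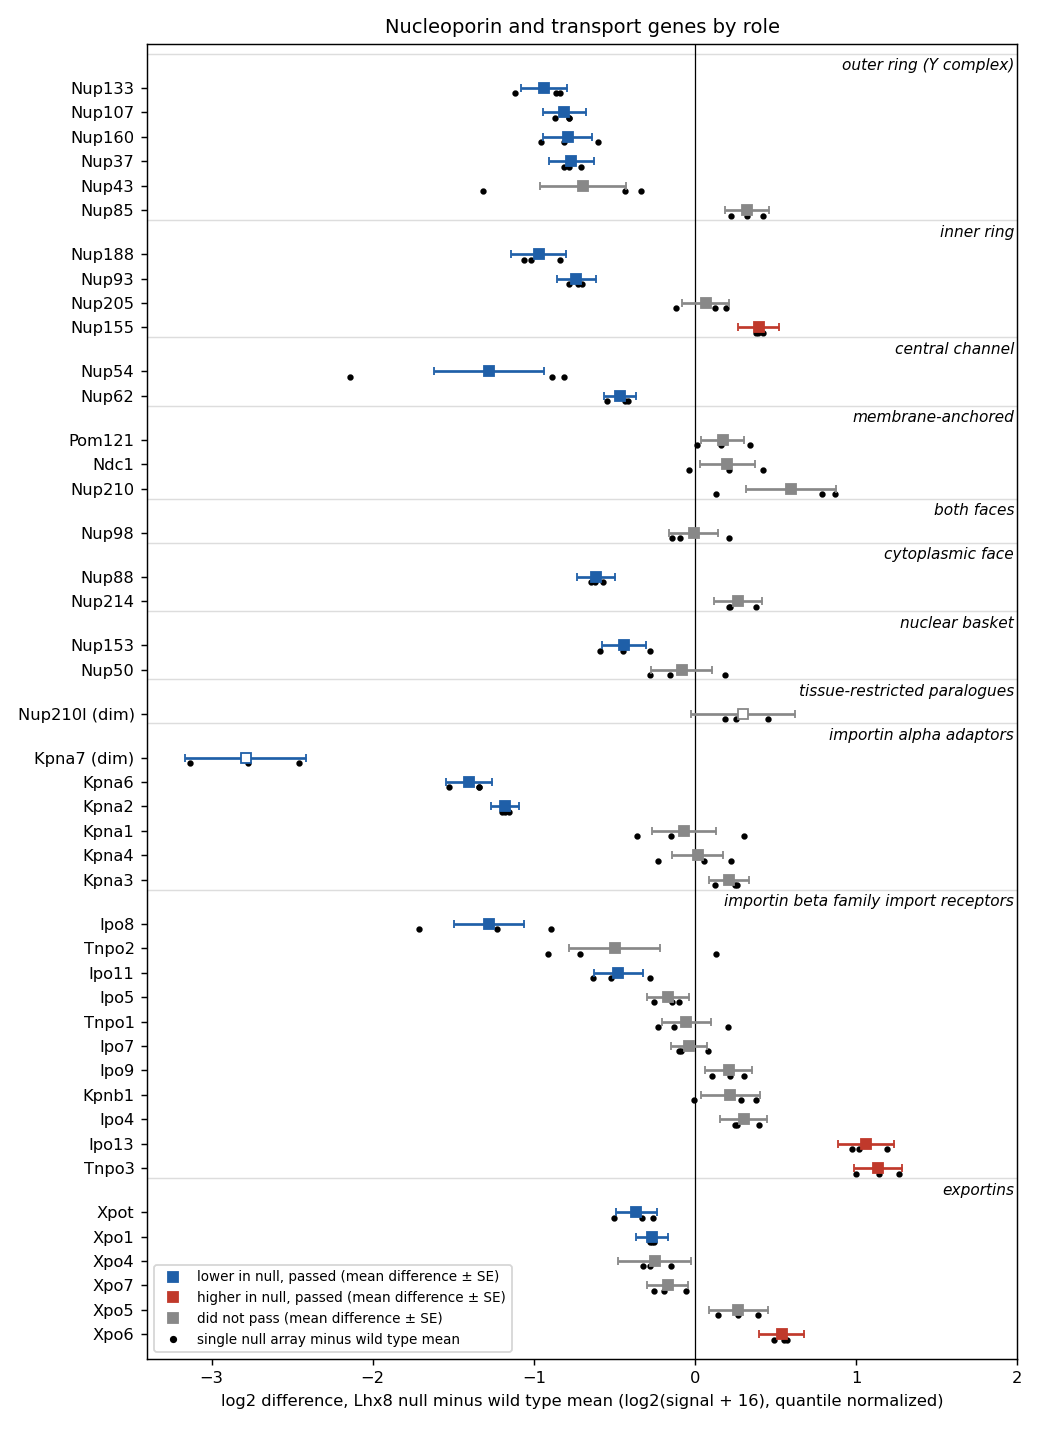
Differences of the 44 genes, Lhx8 null minus wild type, on the log2(signal + 16) scale, grouped by role. Squares are fitted differences with their SE (blue fell, red rose, grey did not pass), black points are the 3 null arrays minus the wild type mean, and open squares are Kpna7 and Nup210l, which were too dim for the main test and come from the fit without a filter. Of the 6 outer ring genes shown 4 are blue, at -0.94 to -0.77, while the 3 membrane-anchored genes are grey, at 0.17 to 0.60.

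Marker transcripts of germ cells and other cell types differed between the same groups. All 11 germ cell markers examined fell, and their summed signal was 7558 to 11908 on null arrays against 60862 to 61245 on wild type arrays. Ddx4 and Dazl, general germ cell markers, had log2 fold changes of -2.70 and -1.81. Of 7 pregranulosa markers 6 fell (summed signal 16987 to 19349 on null arrays against 27614 to 30267). All 6 stromal and smooth muscle markers rose (91207 to 108052 against 42593 to 48931), as did all 5 tested of the oviduct and mesonephric epithelium (11375 to 13689 against 1636 to 1928). Of 4 macrophage markers 3 rose (5929 to 6356 against 1748 to 1824), of 4 endothelial markers 3 (3042 to 3218 against 1438 to 1695) and of 2 erythroid markers 1 (834.0 to 3150.0 against 549.3 to 694.6). No marker was at 0 on any array. Fewer cells of a type and less RNA per cell cannot be told apart in such pools, and the part of these shifts in the results that follow was not tested.

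Outer ring genes mostly fell. The Y complex forms this scaffold. Of the 6 member genes grouped under it here, 4 fell and 5 had every null array below every wild type array. Their median log2 fold change was -0.78. Of all genes tested 22.3% fell, and arrays of the groups did not overlap in this direction for 31.8%. Seh1l and Sec13, outer ring genes outside the naming rule, were measured too and are given with the other pathway genes.

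Nup133, which encodes a stalk subunit that can sense membrane curvature, gave 1209.2, 1428.5 and 1454.9 in null pools against 2920.1 and 2529.3 in wild type pools. Every null array was below every wild type array, and the fitted difference was -0.94 (SE 0.14, adjusted p = 0.000747). Its other bright probe sets gave -0.91 and -1.08, and both passed.

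Nup107, the subunit that joins the stalk to the rest of the complex, had signals of 1040.0, 1026.0 and 965.3 in null pools against 1995.5 and 1730.2 in wild type pools (log2 fold change -0.81, SE 0.13, adjusted p = 0.00118). Nup160, an arm subunit, had 860.0, 926.0 and 1084.0 against 1854.0 and 1616.7 (-0.79, SE 0.15, adjusted p = 0.0027). Nup37, a small subunit bound to NUP160, had 1486.3, 1578.6 and 1458.9 against 2378.9 and 3053.7 (-0.77, SE 0.14, adjusted p = 0.00211). For each of these genes the null arrays lay below both wild type arrays, and the 4 fitted falls lay within 0.77 to 0.94 on the log2 scale. With the mean over all probe sets in place of the brightest, Nup160 stood at 0.075 (adjusted p = 0.828), because its other probe set, with a mean signal of 31.3, had a log2 fold change of 0.94 that did not pass.

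Nup43 and Nup85, which encode arm subunits, did not pass. Nup43 had 462.2, 817.7 and 883.8 in null pools against 1116.1 and 1197.7 in wild type pools, with null replicate 1 well below the others (-0.70, SE 0.27, adjusted p = 0.0588). Without null replicate 1 the difference was -0.39 with adjusted p = 0.0394, and it passed too without null replicate 2 (adjusted p = 0.0438) or 3 (adjusted p = 0.0235). The dimmer probe set of Nup43 fell by 1.11 (SE 0.20, adjusted p = 0.00597 over all probe sets), with 296.7, 377.0 and 362.8 against 680.2 and 813.8. Nup85 went the other way, with 1066.3, 1208.1 and 1126.8 in null pools and 973.8 and 888.9 in wild type pools, at 0.32 (SE 0.14, adjusted p = 0.0786) and at 0.03 with arrays centred on their medians. It passed without null replicate 1 (0.38, adjusted p = 0.043).

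**Figure D2:**
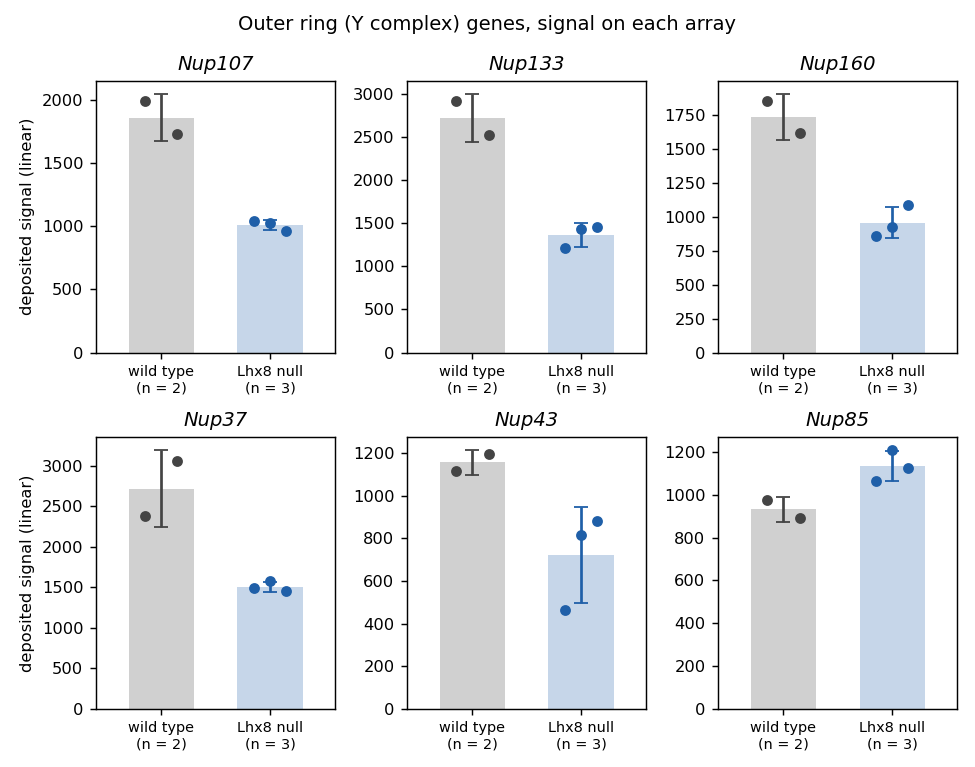
Deposited signal of the 6 member genes grouped as outer ring on each array (linear scale, brightest probe set). Points are arrays, bars the group means and error bars the SD. In 5 panels all 3 null points lie below both wild type points, and in the panel of Nup85 they lie above.

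Inner ring genes split. Nup188 and Nup93 fell, Nup155 rose and Nup205 did not pass. The falls are 50.0% of the 4 tested, beside 22.3% of all genes tested, and the rise is 25.0%, beside 25.6%. In either direction 75.0% passed, beside 47.8% of all genes tested. Nup93, which ties the inner ring to the channel nucleoporins, had 1444.5, 1391.2 and 1470.9 in null pools against 2633.5 and 2400.9 in wild type pools, a fall of 0.74 (SE 0.12, adjusted p = 0.00115). Nup188, a large scaffold protein that binds NUP93, had 407.7, 340.7 and 332.4 against 802.7 and 625.7 (-0.97, SE 0.17, adjusted p = 0.00174).

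Its relative Nup205, which takes a like place in the ring, had 1367.2, 1708.1 and 1623.4 in null pools and 1700.1 and 1428.6 in wild type pools. At this brightest probe set the groups overlapped, at 0.07 (SE 0.15, adjusted p = 0.739). The dimmer probe set of Nup205 had 79.4, 141.4 and 140.7 in null pools against 232.7 and 232.8 in wild type pools. Its difference of -1.08 (SE 0.34) did not pass (adjusted p = 0.0593 over all probe sets). Nup155, which links the inner ring to the membrane, had 1212.5, 1228.5 and 1191.8 against 931.1 and 958.4 and rose by 0.40 (SE 0.13, adjusted p = 0.0293). That rise was lost in 6 of 14 alternative fits: at 0.11 (adjusted p = 0.582) after median centring, at 0.20 (adjusted p = 0.472) with probe sets averaged, and at adjusted p = 0.0764 to 0.112 without null replicate 2 or 3 or either wild type array.

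Nup54 and Nup62, which encode channel nucleoporins whose repeats form the permeability barrier with NUP58, fell at their brightest probe sets. The gene of NUP58, listed as Nupl1, is outside the naming rule and is given with the other pathway genes. Nup54 fell at all 5 of its probe sets, by 0.88 to 1.70 on the log2 scale (adjusted p = 0.000579 to 0.0479 over all probe sets). At the brightest, null replicate 1 stood apart, with 912.0 beside 2156.8 and 2294.7 in the other null pools and 3971.7 and 4244.0 in the wild type pools (-1.28, SE 0.34, adjusted p = 0.0133). Without wild type replicate 2 or 3 this probe set did not pass (adjusted p = 0.0784 and 0.102). The next 2 in brightness were even within groups, with 1060.0, 1034.9 and 1192.2 against 2661.0 and 2451.3 at one (-1.16, SE 0.12) and 1217.9, 1098.0 and 1180.0 against 2277.5 and 2220.0 at the other (-0.88, SE 0.11).

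Nup62 passed at its brightest probe set, where 5928.1, 6192.7 and 5677.3 in null pools stood below 7382.8 and 8034.7 in wild type pools (-0.47, SE 0.10, adjusted p = 0.00455). Its other 4 probe sets had log2 fold changes of -0.23 to 0.01 and none passed. With probe sets averaged Nup62 stood at -0.14 (adjusted p = 0.368). The probe set that fell is of the kind whose name ends in x_at, which can also bind related transcripts, so the value of Nup62 is uncertain. The brightest and the dimmest probe set of Nup54 and the brightest of Kpnb1 are of the same kind.

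None of the 3 membrane-anchored nucleoporin genes passed, where 47.8% of all genes tested did. Their median was 0.20, the value of Ndc1 at its brightest probe set. Nup210, a membrane nucleoporin whose level varies between tissues, had 492.1, 450.1 and 281.8 in null pools and 316.5 and 181.9 in wild type pools. The groups overlapped (0.60, SE 0.28, adjusted p = 0.111), and without null replicate 3 the gene passed at 0.84 (adjusted p = 0.0282). Pom121, which acts in pore assembly, was at 0.17 (SE 0.14, adjusted p = 0.327). Ndc1, an anchor of the pore in the membrane, was at 0.20 (SE 0.17, adjusted p = 0.368) at its brightest probe set, while another fell by 0.74 (adjusted p = 0.0297 over all probe sets). The remaining probe set of Ndc1 was at -0.76 (SE 0.28) and did not pass (adjusted p = 0.0956 over all probe sets), with null arrays below wild type arrays. So the probe sets of Ndc1 did not give 1 answer.

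At the faces of the pore, 1 of the 2 genes tested on each side fell, where 22.3% of all genes tested fell. Nup88, a cytoplasmic partner of NUP214, had 1585.7, 1572.1 and 1649.4 in null pools against 2645.1 and 2495.3 in wild type pools, with no overlap (-0.61, SE 0.12, adjusted p = 0.00254). Nup214 itself, which docks mRNA export factors, was at 0.27 (SE 0.15, adjusted p = 0.164). On the nuclear side Nup153, which helps to anchor the basket, had 1664.5, 1864.8 and 2099.4 against 2498.3 and 2783.6 (-0.44, SE 0.13, adjusted p = 0.0245).

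The call of Nup153 was lost without null replicate 2 (adjusted p = 0.0677), wild type replicate 2 (adjusted p = 0.0535) or wild type replicate 3 (adjusted p = 0.148), and with probe sets averaged the difference was 0.040 (adjusted p = 0.847). Nup50, a mobile basket protein that helps importin alpha to release cargo, was at -0.08 (SE 0.19, adjusted p = 0.744) with overlapping groups. Nup98, found on both faces, was at -0.01 (SE 0.15, adjusted p = 0.968), and its dimmer probe set fell by 0.57 (adjusted p = 0.0226 over all probe sets). Nup210l, a germ cell relative of Nup210, had signals of 6.5 to 20.2 on all arrays, below the brightness cutoff of about 150, and did not pass.

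Importin alpha adaptor genes split. Kpna7, Kpna6 and Kpna2 were lower in null ovaries, and Kpna1, Kpna3 and Kpna4 did not pass at their brightest probe sets. Kpna7 had 35.8, 24.2 and 14.6 in null pools against 168.2 and 297.2 in wild type pools. All 3 null arrays were far below the wild type arrays, but the mean level of the gene lay under the cutoff, so it was not among the 42 genes tested and is singled out here after its values were seen. In the fit of all 45037 probe sets without a filter it fell by 2.79 (SE 0.41, adjusted p = 0.00238), and with 1 or 64 as the added constant the difference was -3.48 or -1.84.

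Kpna6 had 492.2, 416.8 and 476.8 in null pools against 1287.2 and 1243.6 in wild type pools and fell by 1.40 (SE 0.14, adjusted p = 9.68e-05), and its dimmer probe set fell by 1.07. Kpna2, an adaptor gene also linked to proliferating cells, had 5674.1, 5884.0 and 5885.6 against 12117.7 and 11609.5. Pools of a group lay close together, and the level fell by 1.18 (SE 0.09, adjusted p = 1.83e-05). Both genes passed in all 14 alternatives tried besides the stricter threshold, with Kpna2 between -1.27 and -1.03.

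The brightest probe set of Kpna1 gave -0.07 (SE 0.20, adjusted p = 0.805), with 576.8, 650.9 and 892.8 in null pools and 768.3 and 700.2 in wild type pools. Of its other 4, 3 fell by 0.70 to 1.32, and with probe sets averaged Kpna1 passed at -0.61 (adjusted p = 0.0111). Kpna3 had 1632.0, 1797.6 and 1812.3 against 1609.8 and 1556.0 (0.21, SE 0.12, adjusted p = 0.185), while a dimmer probe set fell by 0.69. Kpna4 was at 0.02 (SE 0.16, adjusted p = 0.936), and at -0.44 (adjusted p = 0.0294) with probe sets averaged. So the probe sets of these genes did not give 1 answer.

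**Figure D3:**
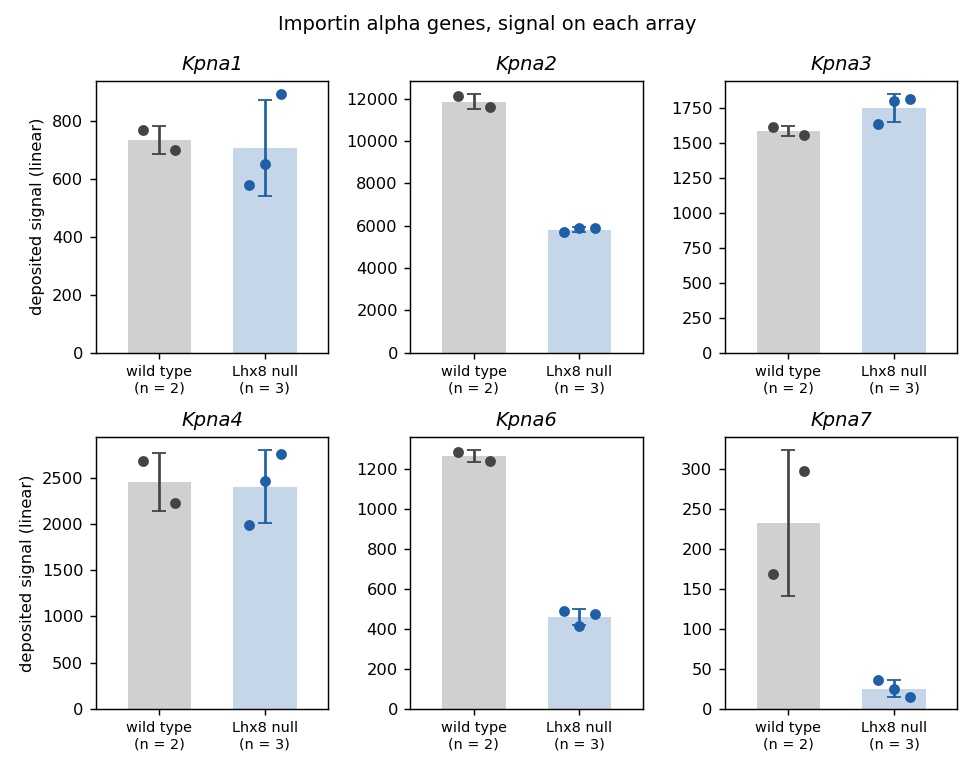
Deposited signal of the 6 importin alpha genes on each array (linear scale, brightest probe set). Points are arrays, bars the group means and error bars the SD. The null points of Kpna2, Kpna6 and Kpna7 lie below all wild type points, while those of Kpna1 and Kpna4 overlap with them.

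The bases just upstream of 4 member genes are shown, picked after their values were seen: Kpna7 and Kpna2 as importin alpha genes that were lower, the first with E-boxes and the second without, Nup160 as the member window with TAATTA, and Tnpo3 as the member gene with the largest rise among those tested. Each is the 250 bases before the RefSeq gene start in GRCm38.p6, 5' to 3' on the strand of the gene. Kpna7 lies on the minus strand at chr5:145009637-145009886, Kpna2 on the minus strand at chr11:106999526-106999775, Nup160 on the plus strand at chr2:90676965-90677214 and Tnpo3 on the minus strand at chr6:29609850-29610099. Capitals mark the E-box CANNTG, the core that basic helix-loop-helix factors such as FIGLA and SOHLH1 bind, and TAATTA or TAATTG, cores bound by homeodomain factors such as NOBOX.
Kpna7: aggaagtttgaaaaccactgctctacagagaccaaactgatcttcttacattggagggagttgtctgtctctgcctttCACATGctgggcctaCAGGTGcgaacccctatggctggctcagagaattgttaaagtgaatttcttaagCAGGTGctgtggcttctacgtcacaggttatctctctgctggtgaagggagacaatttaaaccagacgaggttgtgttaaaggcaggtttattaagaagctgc
Kpna2: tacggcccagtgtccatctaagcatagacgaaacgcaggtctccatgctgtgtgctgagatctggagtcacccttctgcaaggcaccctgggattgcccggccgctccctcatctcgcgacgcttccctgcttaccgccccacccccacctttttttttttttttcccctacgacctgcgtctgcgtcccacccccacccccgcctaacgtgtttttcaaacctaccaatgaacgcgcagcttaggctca
Nup160: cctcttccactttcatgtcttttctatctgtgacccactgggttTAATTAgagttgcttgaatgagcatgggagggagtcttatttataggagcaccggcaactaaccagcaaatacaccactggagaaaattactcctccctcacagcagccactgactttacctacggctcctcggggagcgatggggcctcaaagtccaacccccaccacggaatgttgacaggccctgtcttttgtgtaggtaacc
Tnpo3: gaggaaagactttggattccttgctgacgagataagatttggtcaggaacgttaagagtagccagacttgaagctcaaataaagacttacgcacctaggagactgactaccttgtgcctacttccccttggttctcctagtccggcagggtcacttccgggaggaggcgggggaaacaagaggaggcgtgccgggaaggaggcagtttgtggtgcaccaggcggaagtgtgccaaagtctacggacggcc

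RefSeq windows were matched for 36 of the 44 genes, 43 windows in all, and searched on both strands. The window of Kpna7 held 3 E-boxes, those of Kpna2, Nup160 and Tnpo3 none. An E-box stood in 16 of the 43 member windows (37.2%) and in 66.2% of all 32851 windows of the same length. TAATTA stood in 1 member window (2.33%, against 4.84% of all) and TAATTG in 0 (against 7.17% of all). CCAAT was found in 46.5% of member windows and 33.8% of all, and GGGCGG in 60.5% and 32.7%. Member windows were rich in G and C, with a median of 64% against 52.4% for all, and that of Kpna7 had 46.0%. A match describes the letters and shows no binding.

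Import receptors of the importin beta family moved both ways. Of 11 tested, 2 fell (18.2%, beside 22.3% of all genes tested), 2 rose (18.2%, beside 25.6%) and 7 did not pass. In either direction 36.4% passed, beside 47.8% of all genes tested, and the median was -0.04. Tnpo3, the receptor of splicing factors with serine-arginine repeats, had 1427.9, 1306.7 and 1192.7 in null pools against 551.1 and 644.4 in wild type pools. Every null array was above both wild type arrays, and the level rose by 1.14 (SE 0.15, adjusted p = 0.000351). Its other probe sets rose by 1.01 and 1.03, from 503.0 and 427.8 to 984.0, 992.8 and 882.8 at one of them. Tnpo3 was the only member gene with more than 1 probe set whose probe sets all passed as higher.

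Ipo13, a receptor that carries cargo in both directions, had 940.0, 815.8 and 797.7 in null pools against 466.1 and 332.2 in wild type pools and rose by 1.06 (SE 0.17, adjusted p = 0.00107). Ipo8, which carries SMAD and Argonaute proteins among other cargo, had 906.0, 502.4 and 708.8 against 1697.4 and 1786.7 and fell by 1.28 (SE 0.22, adjusted p = 0.00147). A dimmer probe set of Ipo8 fell by 1.93. These 3 genes passed in all 14 alternatives, and with arrays centred on their medians Tnpo3 and Ipo13 stood at 0.86 and 0.83.

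Ipo11, an importin of ubiquitin-conjugating enzymes, had 1125.8, 930.6 and 872.3 in null pools against 1339.0 and 1497.9 in wild type pools (-0.48, SE 0.15, adjusted p = 0.0285). Its call was lost without null replicate 2 (adjusted p = 0.0787), null replicate 3 (adjusted p = 0.0959), wild type replicate 2 (adjusted p = 0.0665) or wild type replicate 3 (adjusted p = 0.17). Kpnb1, the importin beta that pairs with importin alpha, had 2571.4, 3444.2 and 3221.1 against 2247.0 and 3300.3, with overlapping groups (0.22, SE 0.18, adjusted p = 0.348), and none of its 4 probe sets passed. Its sign turned to -0.08 with arrays centred on their medians.

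The remaining import receptors lay between -0.50 and 0.30. Tnpo2, a relative of transportin 1, had 697.9, 326.6 and 377.4 in null pools and 630.0 and 625.4 in wild type pools, so that null replicate 1 lay above both wild type arrays and the other null arrays below them (-0.50, SE 0.28, adjusted p = 0.172). Without null replicate 1 it passed at -0.83 (adjusted p = 0.00235). Tnpo1, transportin 1 itself, was at -0.05, with a dimmer probe set that fell by 0.54 (adjusted p = 0.0321 over all probe sets). Ipo7 and Ipo5 were at -0.04 and -0.17, and Ipo9 and Ipo4 at 0.21 and 0.30. Ipo9 had 1 dimmer probe set that rose by 0.91 (adjusted p = 0.00454 over all probe sets), with 868.5, 1025.9 and 1030.2 against 554.1 and 472.3. Ipo4 passed without wild type replicate 2 (0.50, adjusted p = 0.0374) and stood near 0 after median centring.

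Of 6 exportin genes tested, 2 fell, 1 rose and 3 did not pass. The share that passed, 50.0%, is near the 47.8% of all genes tested, and all 6 lay between -0.36 and 0.54. Xpo6, the exporter of actin with profilin, had 1438.5, 1460.6 and 1383.8 in null pools against 1134.1 and 905.1 in wild type pools and rose by 0.54 (SE 0.14, adjusted p = 0.0118). The call was lost after median centring (0.24, adjusted p = 0.246) and without wild type replicate 3 (0.38, adjusted p = 0.101).

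Xpo1, the main exporter of proteins with a leucine-rich export signal, had 4103.2, 4278.2 and 4394.0 against 5068.7 and 5237.6 (-0.27, SE 0.10, adjusted p = 0.0492), and 9 of 14 alternatives lost the call, with adjusted p of 0.0549 to 0.158. Among them were the fits without null replicate 2 or 3 or either wild type array. Xpot, the exporter of tRNA, had 2350.6, 2036.4 and 2306.0 against 3128.1 and 2822.2 (-0.36, SE 0.13, adjusted p = 0.0405). Its call was lost in 6 alternatives (adjusted p = 0.0708 to 0.385), those same 4 arrays left out in turn included, and 2 of its dimmer probe sets had 0.33 and 0.25.

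Xpo5, the exporter of microRNA precursors, was at 0.27 (SE 0.18, adjusted p = 0.248), Xpo4 at -0.25 (SE 0.22) and Xpo7 at -0.17 (SE 0.13). Xpo4 and Xpo7 each had 1 dimmer probe set that passed, at 1.14 (adjusted p = 0.0478 over all probe sets) and -0.57 (adjusted p = 0.018 over all probe sets). Groups overlapped at the brightest probe set of all 3 genes.

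Over all 116 member probe sets, fitted with no filter, 31 fell, 8 rose and 77 did not pass. Those are 26.7% and 6.90%, where 10.3% of all 45037 probe sets fell and 10.7% rose. By 2-fold or more 14 fell and 5 rose, beside 6.1% and 6.17% of all probe sets. Arrays of the groups did not overlap for 70 of the 116 (60.3%) and for 49.5% of all probe sets. Of the 116, 84 lay above the brightness cutoff of the gene test, where 40.5% passed, and 32 lay below it, where 15.6% passed. The shares over all probe sets were not matched to the members for brightness. Probe sets of the same gene were counted separately, so the counts are not counts of genes. The falls include 5 probe sets of Nup54 and the rises 3 of Tnpo3. Of the 35 genes with more than 1 probe set, 19 had at least 1 call, all in 1 direction, 16 had none, and 0 had calls in both directions. Only Ipo8, Kpna1, Kpna6, Nup133, Nup54 and Tnpo3 had more than 1 call. For the rest of the 19 calls in both directions were not possible, so the count does not measure agreement there. All probe sets passed as lower for Nup54 (5 of 5) and Kpna6 (2 of 2).

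**Figure D4:**
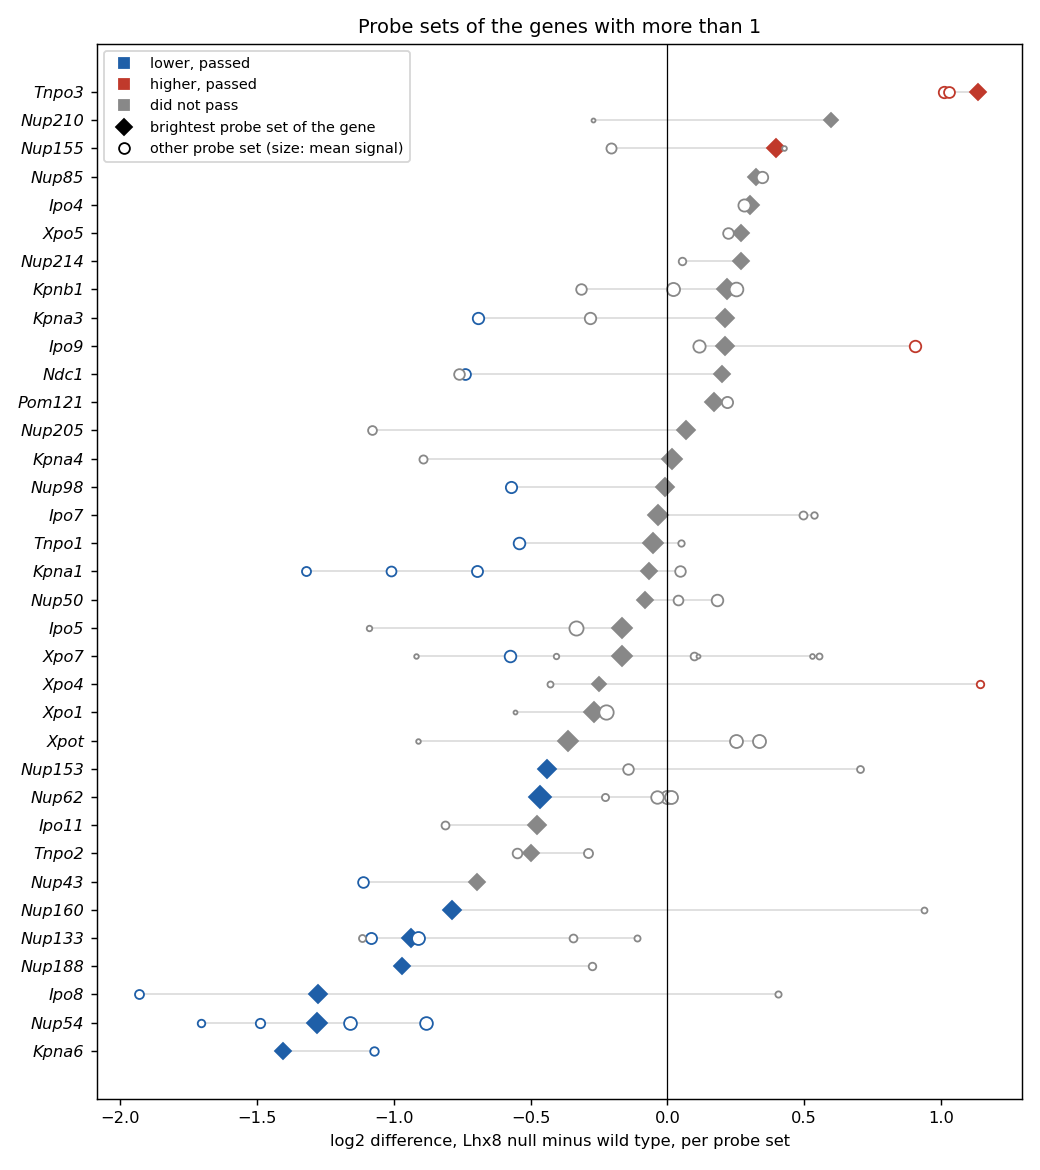
Differences of each probe set of the 35 member genes with more than 1, Lhx8 null minus wild type, on the log2(signal + 16) scale. Diamonds are the brightest probe set of a gene, circles the others, sized by mean signal, and colours show which passed in the fit over all probe sets, where Ipo11, Xpo1 and Xpot did not. The 5 points of Nup54 and the 3 of Tnpo3 lie on 1 side of 0, while those of genes such as Kpna1 and Xpot lie on both sides. Those of Ipo9 all lie above 0, spread from 0.12 to 0.91.

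Other genes of the nuclear transport pathway were read from a list of 30 names, of which 28 were measured and tested. Of these 9 fell (32.1%, beside 22.3% of all genes tested), 5 rose (17.9%, beside 25.6%) and 14 did not pass. In either direction 50.0% passed, near the 47.8% of all genes tested, and the median was 0.04, as for all genes tested. Among the falls were pore components that the naming rule left out. Nupl1, which encodes the channel protein NUP58, fell by 0.64 (SE 0.11, adjusted p = 0.00171), with 3120.6, 2988.5 and 3505.9 in null pools against 4968.1 and 5121.8 in wild type pools. Seh1l, another outer ring gene, fell by 0.54 (SE 0.12, adjusted p = 0.005) and Rae1, an mRNA export factor that binds NUP98, by 0.41. The outer ring gene Sec13 (0.13) and Ahctf1 (0.02), whose protein seeds pores on chromatin, did not pass. Seh1l, Rae1, Sec13 and Ahctf1 were picked after their values were seen.

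Senp2, a SUMO protease found at the pore, fell by 1.20 (SE 0.20, adjusted p = 0.00116), with 1291.4, 805.1 and 887.5 in null pools against 2458.8 and 2241.2 in wild type pools. Nxt2, a cofactor of mRNA export, fell by 1.30 (SE 0.28, adjusted p = 0.00428) and Ddx19b, an RNA helicase of the cytoplasmic face, by 0.89 (SE 0.18, adjusted p = 0.00305). Cse1l, which returns importin alpha to the cytoplasm and was picked after its value was seen, fell by 0.42 (adjusted p = 0.0106).

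In the RAN cycle, Rangap1, which triggers GTP hydrolysis by RAN, rose by 1.03 (SE 0.18, adjusted p = 0.00164), with 852.1, 1026.3 and 1052.4 in null pools against 554.1 and 391.7 in wild type pools. Ranbp3, a cofactor of XPO1, rose by 0.68 (SE 0.14, adjusted p = 0.00356), Ranbp2, the large nucleoporin of the cytoplasmic filaments, by 0.39 and Pcid2, of an mRNA export complex at the pore, by 0.44. Ranbp17 fell by 0.91 (SE 0.22, adjusted p = 0.00819), with 158.8, 187.8 and 161.4 in null pools against 306.5 and 288.6 in wild type pools. Ran itself and Rcc1, its exchange factor, had 0.06 and 0.14 and did not pass, nor did Ranbp1 (-0.18) and Ranbp6 (0.08). Ranbp17, Ran, Rcc1, Ranbp1 and Ranbp6 are named here after their values were seen.

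Genes of dividing cells were read beside these because some transport genes follow proliferation. Of 11 tested 4 rose (36.4%, beside 25.6% of all genes tested), 1 fell (9.09%, beside 22.3%) and 6 did not pass. In either direction 45.5% passed, near the 47.8% of all genes tested. Any relation of these genes to the fall of Kpna2 was not tested. Mki67 and Top2a rose by 1.77 and 1.20, and Bub1 fell by 1.40. The summed signal of the list was 39425 to 44150 on null arrays and 32171 to 35083 on wild type arrays.

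Set side by side, the 20 nucleoporins tested that the naming rule takes in had 10 falls (50.0%) and 1 rise (5.0%), with a median of -0.45. Pore genes outside the rule are not counted there. Among those Nupl1, Seh1l and Rae1 fell, Ranbp2 rose, and Sec13, Ahctf1, Aaas, Nupl2 and Gle1 did not pass. The 22 receptors and adaptors had 6 falls (27.3%) and 3 rises (13.6%), with a median of -0.06. Of all genes tested 22.3% fell and 25.6% rose. The difference between nucleoporins and receptors or adaptors was not tested. Nucleoporin differences ranged from -1.28 to 0.60 and those of the receptors and adaptors from -1.40 to 1.14.

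**Figure D5:**
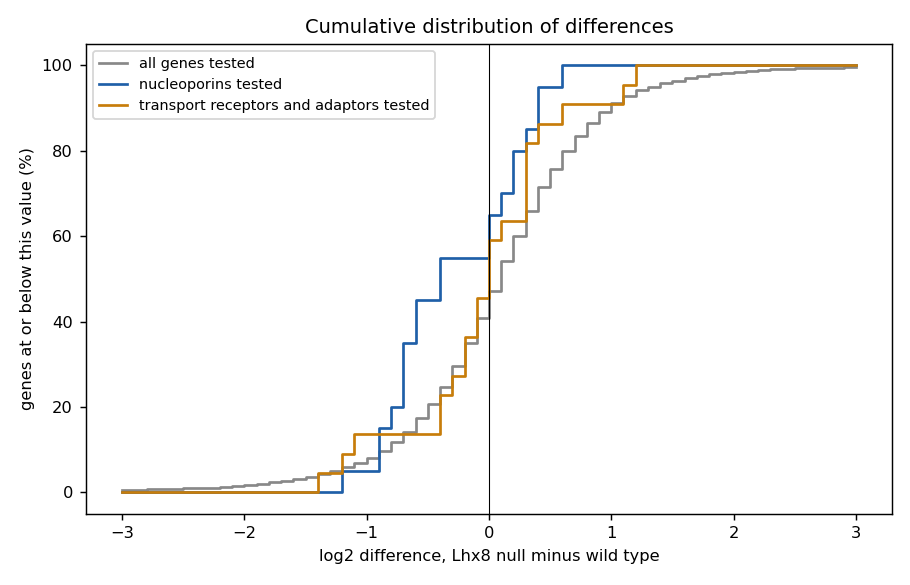
Cumulative distribution of the differences, Lhx8 null minus wild type, on the log2(signal + 16) scale, in steps of 0.1. Lines are all 10916 genes tested (grey), the 20 nucleoporins (blue) and the 22 transport receptors and adaptors (orange). At -0.6 or below lie 45.0% of the nucleoporins, 13.6% of the receptors and adaptors and 17.4% of all genes tested.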

How the data were processed

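The authors deposited linear intensity values for 5 arrays, with a 2% trimmed mean of 500 on each. GCOS is named for wild type arrays in the submitters' processing notes, and for null arrays the sources used here name no software. Samples were grouped by their labels. Control probe sets (64) were left out. The deposited values were transformed to log2(signal + 16) and, as array medians differed by 0.38, quantile normalization was applied (limma 3.58.1, R 4.3.3). For each of 18193 genes the brightest probe set was used, and the 40% with the lowest mean were left out. Null minus wild type differences were tested with limma (lmFit, eBayes with a trend, two-sided, Benjamini-Hochberg over the 10916 genes tested). The same fit over 45037 probe sets without a filter gave the probe set values. All adjusted p-values come from limma.

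Probe sets were named through the platform annotation, and 3 that pair a member with another gene were left out by the rule. Nup35, Tpr and Nup62cl had no probe set of a single symbol and were not analysed here. The members, role groups and lists were chosen with earlier results of these data known. Genes were named by rule: up to 15 falls and 15 rises that passed without overlap of arrays, the lowest and highest of each role group, and up to 4 pathway genes in each direction; the remaining members are named to account for each. The p-values measure only the spread between these pools.

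Arrays of this size were simulated for this comparison over 10916 genes. Of changes of 0.5 on the log2 scale, 6.12% were called in the right direction. The share was 63.0% at 1, 93.3% at 2 and 100.0% at 4. Only 49, 46, 45 and 38 genes in that fit were changed by these sizes, while 47.8% of genes tested passed in the data. Benjamini-Hochberg correction is stricter where fewer genes change, so these rates do not give the share of changes found in the real arrays. Alternatives changed the scaling, added constant, filter, choice of probe set, variance trend or threshold, used replicate numbers as a block, or left out 1 array. Figures were drawn with matplotlib 3.10.9.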

Additional observations from a re-analysis of the deposited data

How the results depend on the processing

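Of the 20 member genes past the threshold, 11 (9 lower, 2 higher) passed in every alternative that tested them, the threshold of 0.01 included; Nup188, 1 of the 11, was not tested with 60% of genes left out. Of the 20, 18 kept their sign in all of them, and the exceptions were Nup160 (0.075) and Nup153 (0.040) with probe sets averaged; Kpna4, which had not passed, turned to -0.44 there. Member falls numbered 16, and 11 to 18 with 1 array left out; rises numbered 4, and 2 to 5. Rises came to 2 after median centring and at a threshold of 0.01. Member probe sets that fell numbered 31, and 12 to 35 with 1 array left out, 18 without a variance trend and 17 at 0.01. Those that rose numbered 8, and 4 to 9 with 1 array left out, 5 after median centring and 5 at 0.01. Over all genes 2429 fell and 2791 rose, 1543 to 2622 and 1846 to 2916 with 1 array left out; after median centring 1720 rose, and at 0.01 1831. The median member difference of -0.12 was -0.35 after median centring, -0.083 with 60% of genes left out, -0.29 with probe sets averaged, -0.15 with the replicate block and -0.21 to -0.074 with 1 array left out. Without wild type replicate 3, 13 member probe sets fell and 4 rose and 1543 and 1846 of all genes did, and without wild type replicate 2, 12 member probe sets fell. Without null replicate 2 or 3, 5 member probe sets rose. The causes were not tested.

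Whether the shared replicate numbers mark a pairing cannot be told, because with 2 wild type arrays the deviations of one mirror those of the other. Deviations correlated at -0.13 for number 2 and 0.10 for number 3, and at 0.18 for null replicate 1 with wild type replicate 2. With the replicate block 17 member genes fell and 4 rose. Leaving out a wild type array leaves 1, whose spread is then assumed to be that of the null group. Signals near background, such as those of Kpna7 in null pools, depend on the added constant.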
